A study of Oryza sativa with 2 samples.

Results

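The rice genes for the DNA methyltransferases MET1b, MET1a, CMT3a and DRM2 were read in endosperm of the japonica cultivar Zhonghua11 (Oryza sativa), hand-picked 2 days after pollination. They were found by these names among the symbols and synonyms of the rice gene table, with hyphens, letter case and an Os prefix ignored, and joined to the array through their gene identifiers. All 4 genes were matched, out of 17905 genes that the array reads through a probe set listed for a single gene. Each of the 4 had exactly 1 such probe set, so 4 of 57194 rice probe sets carry the values below. The series holds a single group, 2 samples on an Affymetrix rice array apiece, and asked what early endosperm expresses. The labels place this stage before cellularization, name no mutation or treatment, and give days of 12 h at 28 °C and nights of 12 h at 22 °C. Whether different plants gave the samples is not stated, so the spread between the arrays may be technical, and with 1 group no contrast between conditions can be tested.

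DNA methyltransferases place methyl groups on cytosine, a mark that plants use to silence transposons and to fix which parental copy of an imprinted gene is active. MET1 copies methylation at CG sites onto the new strand after replication. Chromomethylases such as CMT3 bind methylated histone H3 and keep CHG sites methylated (H is any base but G), and DRM2 adds methylation in all contexts where small RNAs guide it. Endosperm is the seed tissue that feeds the embryo, and in rice, as in Arabidopsis, its DNA carries less methylation than that of the embryo. At first it divides as nuclei without walls, so its chromatin is replicated again and again within a short time.

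All 4 methyltransferase genes gave signals above background on both arrays. Background was taken on each array as the 95th percentile of 64 probe sets against reporter and transgene sequences, which untransformed rice lacks. The resulting thresholds were signals of 52.7 (array 1) and 37.9 (array 2). Of all 17905 genes, 74.1% passed the same threshold on both arrays, and of all rice probe sets 42.8% did, so detection of 4 of 4 does not set these genes apart. What differed among them was how far above background their probe sets lay.

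MET1b, also listed as MET1-2, is the maintenance enzyme that rice relies on most for CG methylation. Its gene (LOC4342575, on chromosome 7 in the gene table) is read by probe set Os.57401.1.S1_at. The signal was 9901.5 on array 1 and 10205.2 on array 2. On the log2 scale this is 13.30 ± 0.03 (mean and SD, n = 2). The signal was 188 times background on array 1 and 269 times on array 2, and 96.2% of genes had a dimmer probe set on each array. MET1b was thus bright on both arrays, with little spread between them.

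MET1a, also listed as MET1-1, is the second rice gene of the same type. Its gene (LOC4334435, chromosome 3) is read by probe set Os.30977.1.S1_at. The signal was 468.3 on array 1 and 394.6 on array 2, or 8.75 ± 0.17 in log2 signal (SD, n = 2). These signals were 8.88 and 10.4 times background, close to the middle of all genes, with 52.9% of genes dimmer on array 1 and 50.5% on array 2. In the gene table the span of MET1a overlaps that of another protein-coding gene, LOC4334436, the only overlap found for the 4 genes. That gene has a probe set of its own, with signals of 1058.5 and 993.1 on arrays 1 and 2. Where the MET1a probes lie relative to the overlap was not analysed here.

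CMT3a, the chromomethylase of CHG sites in rice, is a gene on chromosome 10 (LOC4347954) read by probe set Os.46741.1.S1_at. The signal was 3015.3 on array 1 and 2821.6 on array 2, or 11.51 ± 0.07 in log2 signal (SD, n = 2). Both signals were far above background, at 57.2 and 74.4 times, and 84.0% and 82.8% of genes had a dimmer probe set on arrays 1 and 2. The other chromomethylase gene matched, CMT1 (LOC4332128), had no single-gene probe set and was not analysed here.

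DRM2, the de novo enzyme of the small RNA pathway, is a gene on chromosome 3 (LOC4331357) read by probe set Os.52141.1.S1_at. The table also lists this gene under the synonym OsDRM1, so that name gives no further gene. The signal was 2309.5 on array 1 and 2197.2 on array 2, or 11.14 ± 0.05 in log2 signal (SD, n = 2). These signals were 43.8 and 58.0 times background, with 79.7% and 78.9% of genes dimmer on arrays 1 and 2. DRM2, like CMT3a, lay in the upper part of the range on both arrays.

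**Figure D1:**
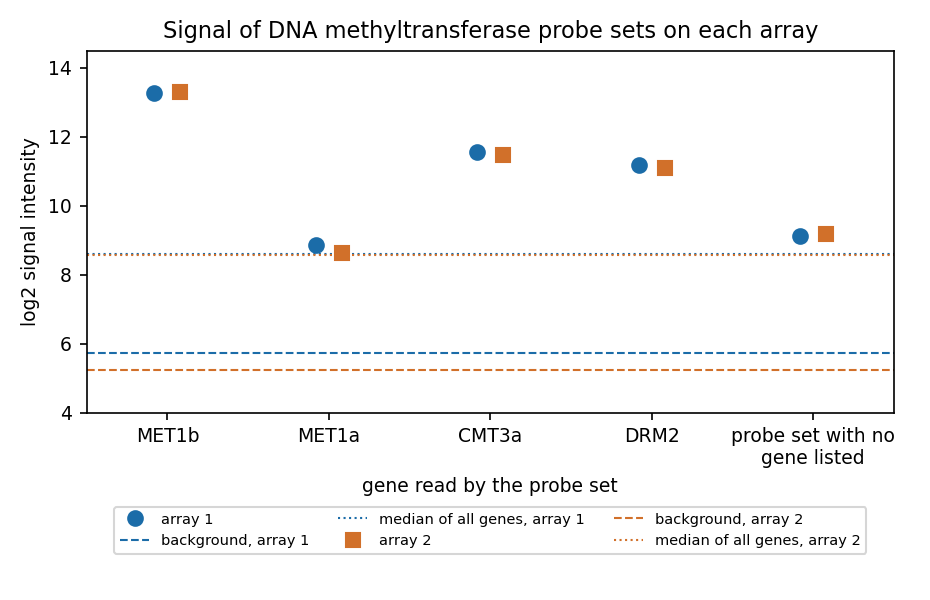
Log2 signal intensity (vertical axis) of the probe sets for MET1b, MET1a, CMT3a and DRM2, and of a probe set with no gene listed that shares its cluster number with CMT3a, with circles for array 1 and squares for array 2. Dashed lines mark the background of each array and dotted lines the median over 17905 genes: MET1b, CMT3a and DRM2 lie well above the dotted lines and MET1a just above them, at 8.87 and 8.62.

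The brightness of a probe set depends on its probes as well as on its transcript, so these signals do not rank the 4 transcripts by amount. The gap between the MET1b and MET1a probe sets was 4.40 log2 units on array 1 and 4.69 on array 2. Those gaps describe the probe sets. The change of 0.29 between the arrays is free of a constant probe effect, but within 1 group it describes only the spread between the arrays. The gap between CMT3a and DRM2 was 0.38 and 0.36 on arrays 1 and 2 and changed by only -0.02. Amplification in this assay starts at the 3' end of a transcript. The ratio of 3' to 5' signal of the rice control genes ran from 2.99 for cyclophilin to 13.7 for actin, and its part in the signal of the long MET1 transcripts was not tested.

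The arrays gave close values for all 4 genes. The log2 difference, array 2 minus array 1, was 0.04 for MET1b, -0.25 for MET1a, -0.10 for CMT3a and -0.07 for DRM2. Thus 3 of the 4 were dimmer on array 2, as were 9605 of all 17905 genes. None of the 4 was over 2-fold apart, which was the case for 1.72% of the 24467 rice probe sets that passed background on both arrays. For each gene the 1000 other such probe sets closest in mean signal show what spread is usual at that brightness. The middle 95% of their differences ran from -0.24 to 0.37 around MET1b, from -0.56 to 0.59 around MET1a, from -0.37 to 0.40 around CMT3a and from -0.33 to 0.37 around DRM2. All 4 genes lay inside these ranges. The MET1b difference was that of its surroundings, whose median was 0.04, while MET1a lay 0.21 below the median of its own. The SD between arrays at the brightness of MET1a was 0.21, against 0.12 at that of MET1b.

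**Figure D2:**
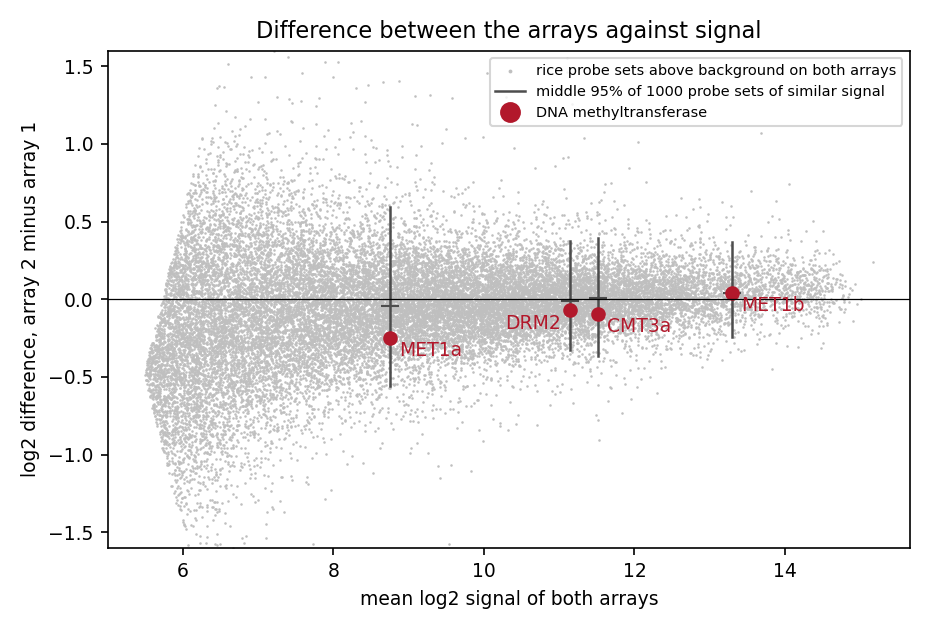
Log2 difference, array 2 minus array 1 (vertical axis), against the mean log2 signal of both arrays (horizontal axis) for rice probe sets that passed background on both arrays (grey; 39 lie beyond the plotted range). Red points are the DNA methyltransferases, each with a bar for the middle 95% and a tick for the median of 1000 probe sets of similar signal: all 4 points lie within their bars, MET1a lowest at -0.25.

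Other genes of DNA methylation were looked up by name: those that write, guide or remove it, a chromatin partner and the suppliers of the methyl donor. Of 9 matched, 8 had a single-gene probe set, and all 8 were above background on both arrays, where 74.1% of all genes were. Other names sought, such as CMT2 and DDM1, matched no gene. Whether the array reads those genes under other identifiers was not analysed here, so the 8 are only a part of the pathway. Taking the mean log2 signal of each gene, the median was 11.32 for the 4 methyltransferases and 10.39 for the 5 other genes that write, guide or remove methylation. The remaining 3, MSI1 and the donor genes, were bright, with a median of 13.68, and brought the median of all 8 to 12.13. Over all genes the median was 8.58, and over the genes above background on both arrays 9.77. With so few genes, single bright or dim probe sets weigh heavily in these medians.

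Among these matched genes, DRM3 is the only further methyltransferase gene read. In Arabidopsis, DRM3 lacks catalytic activity and assists DRM2. Its chosen probe set gave 1170.9 and 996.1 on arrays 1 and 2, or 10.08 ± 0.16 in log2 signal (SD, n = 2). The probe sets of DRM3 disagreed: another stood at 8.53, and the dimmest, at 4.68, was below background on both arrays. On the opposing side, ROS1C (also DNG701), a glycosylase that removes methylated cytosine, gave 588.0 and 559.5, or 9.16 ± 0.05. A second probe set of ROS1C read 5.29 and 35.2, below background on both arrays.

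The small RNA pathway that guides DRM2 was represented by RDR2, AGO4a and AGO4b. RDR2, the RNA polymerase that makes the double-stranded precursors of the guiding small RNAs, gave 1500.4 and 1191.9 on arrays 1 and 2, or 10.39 ± 0.23. AGO4a and AGO4b are Argonaute proteins that carry these small RNAs. AGO4a gave 14155.7 and 14292.6, or 13.80 ± 0.01, and 98.1% and 97.9% of genes had a dimmer probe set. AGO4b gave 2077.2 and 1729.2, or 10.89 ± 0.19. The log2 difference, array 2 minus array 1, was -0.07 for DRM2, -0.26 for AGO4b, -0.33 for RDR2 and 0.01 for AGO4a.

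The remaining matches were MSI1 and the methyl donor genes. MSI1 is a WD40 protein that in Arabidopsis belongs to both the chromatin assembly factor and Polycomb complexes. It gave 12829.2 and 13445.7, or 13.68 ± 0.05, with its other probe set at 12.36. SAM1 and SAM2 encode synthetases of S-adenosylmethionine, the methyl donor of all these enzymes. SAM1 gave 13818.0 and 14754.2, or 13.80 ± 0.07, and SAM2 gave 10509.7 and 10573.9, or 13.36 ± 0.01. Both donor genes and MSI1 were thus bright on both arrays, like MET1b.

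**Figure D3:**
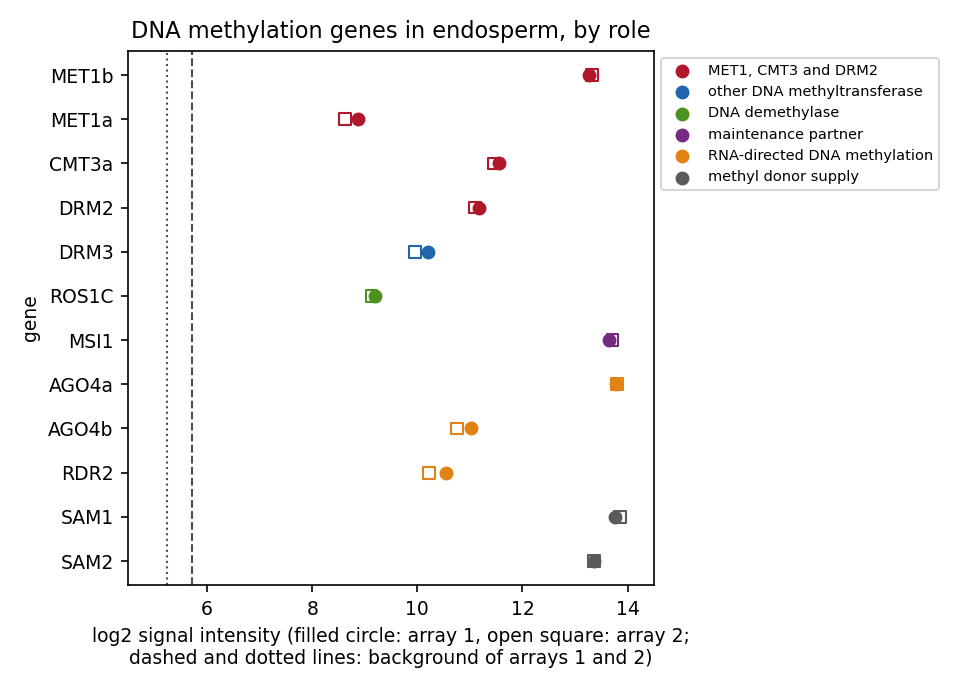
Log2 signal intensity (horizontal axis) of the 4 methyltransferase genes and the 8 other DNA methylation genes read, coloured by role, with filled circles for array 1, open squares for array 2 and vertical lines for the background of each array. All 12 genes lie above both lines, with AGO4a and SAM1 brightest at 13.80 and MET1a dimmest at 8.75.

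Histone-modifying, chromatin assembly and replication genes were added after their values were seen. PCNA, the sliding clamp to which the MET1 homologue of mammals binds at the replication fork, gave 7845.3 and 9178.8, or 13.05 ± 0.16. Of 8 genes of histone modification and chromatin assembly, 7 were above background on both arrays, where 74.1% of all genes were. The brightest probe sets among them were those of the Polycomb gene fie, at 12.98 ± 0.09, and of SDG723, a trithorax-type gene, at 11.47 ± 0.01. The probe sets of SDG723 disagreed: another stood at 7.37, and the dimmest, at 2.27, was below background on both arrays. JMJ703, EZ1, FAS2 and JMJ705 followed at 10.81, 9.48, 9.46 and 8.88. JMJ706, a histone demethylase that in rice acts on the H3 mark bound by chromomethylases, gave 126.1 and 87.2, or 6.71 ± 0.38, and its second probe set 230.8 and 172.2. The deacetylase HDA703 was above background on array 2 alone (49.5 and 71.3).

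Genes with a similar pair of signals were named as a description of brightness, by the distance between pairs of log2 signals over the 2 arrays. Only the 2458 of 17905 genes that have a symbol or synonym were searched, so genes without a name may lie closer. For MET1b they were NTRB, SAP4 and RPT5a, at distances of 0.02, 0.02 and 0.04. For MET1a they were NIN1, JAZ7 and C3H19, at 0.01, 0.03 and 0.05. For CMT3a they were CPK13, SWEET4 and NH2, at 0.02, 0.02 and 0.04, and for DRM2 they were RBOHB, PRMT4 and DPNPase, at 0.02, 0.03 and 0.04. With 2 arrays of 1 tissue, such closeness is a likeness of brightness alone.

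The genes next to the methyltransferases on the chromosomes gave widely different signals. Of 8 genes that flank the 4, 5 had a single-gene probe set. Of these, 3 were above background on both arrays, where 74.1% of all genes were. The gene before MET1a gave 697.2 and 727.9. The gene before CMT3a gave 8.80 and 1.10, below background, and the gene after it gave 1689.6 and 1476.4. MET1b has IAA24, a repressor of auxin response, before it, which gave 141.9 and 98.4. The gene after DRM2 gave 34.4 and 10.7, below background. CMT3a and DRM2 thus each had a neighbour that was not detected. With only 5 genes read, this count does not set the neighbours apart from all genes.

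The tissue label was checked against marker genes, by detection. All 10 endosperm markers read were above background on both arrays, where 74.1% of all genes were. Their mean log2 signals ran from 6.69 for the glutelin gene GLUB-5 to 14.64 for the sucrose synthase gene SUS3. Low in that range with GLUB-5 were RSR1 at 7.07 and GLUA-2 at 7.84. The second probe set of GLUA-2 stood at 6.86 and was brighter on array 2 (90.1 and 150.6), while the chosen one was dimmer there (263.8 and 198.3). On array 1 GLUB-5 read 75.6, only 1.43 times background and below the highest reporter signal of 92.3. The 6 probe sets of the marker GBSS-I ran from 1.89, below background on both arrays, to 14.18, with the chosen one at 12.73. Of 4 seed coat, nucellus and embryo markers 2 were above background on both arrays, MADS29 at 8.33 and MADS21 at 7.02, while MADS13 at 5.45 was not. The shoot meristem gene OSH1 was below background on both arrays, at 1.16 and 11.7 in one probe set and at 18.9 and 34.5 in the other. All 5 photosynthesis markers read were above background in the chosen probe set, from 6.80 for the Rubisco gene rbcS to 11.49 for CAB2R. Other probe sets of rbcS stood at 7.61 and, below background on both arrays, at 4.58 and 0.95. The second probe set of CAB2R stood at 9.28. Every endosperm and photosynthesis marker read was thus detected, but only 2 of 4 on the seed coat, nucellus and embryo list. Over all genes 74.1% were detected, and the median was 8.58. Below that median lay the whole seed coat, nucellus and embryo list and every photosynthesis marker read but CAB2R. On the endosperm list only GLUB-5, RSR1 and GLUA-2 lay below it. Summed signals, which depend on the probe sets in each list and are not set against each other, were 78945 and 76058 on arrays 1 and 2 for the endosperm list, mostly SUS3, AGPS2 and SWEET11. They were 496 and 510 for the seed coat list, and 3366 and 3640 for the photosynthesis list, mostly CAB2R. The part of other tissue in the methyltransferase signals was not tested, and in such bulk samples more cells of a type and more RNA per cell cannot be told apart.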

How the data were processed

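Total RNA of 2 samples was amplified with a 3' IVT kit and hybridized to 1 array each, per the labels' protocols. The authors deposited a linear signal intensity for every probe set on each array. The submitters' processing notes name MAS5, with version and settings not given in the sources used here. The mean of an array, trimmed by 2% at either end, was 500.1 for both, which shows scaling array by array. The deposited intensities were taken to log2 with no further normalization. With 2 arrays, precision is limited by their number.

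Probe sets were assigned with the platform annotation of 2016, and names and chromosomes were taken from the gene table of assembly ASM3414082v1. Of 57381 probe sets, 187 controls were left out. A gene with several single-gene probe sets was represented by one, by suffix (_at first) and then by the highest mean signal. Named were all probe sets of the methyltransferases and the matched genes of the DNA methylation lists. For each methyltransferase the 3 genes closest in signal, among those with a symbol or synonym, were also named. Marker and histone list genes were counted, with examples chosen after their values were seen. The methyltransferases and lists were chosen with earlier results of these data known. No test was made, since there is 1 group. The steps were tested on simulated data. Alternatives changed the background, the normalization, the offset, the probe set rule and the arrays used. The software was Python 3.11.15, with pandas 2.3.3, NumPy 2.4.6 and matplotlib 3.10.9.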

Additional observations from a re-analysis of the deposited data

Results flagged for a closer look

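A probe set named Os.46741.2.S1_x_at shares its cluster number with the CMT3a probe set, but the annotation lists no gene for it, so it was counted only among the rice probe sets and entered no value given for a gene. It was picked out because its signal lay above the reporter background on both arrays, at 555.9 on array 1 and 581.2 on array 2, or 10.5 and 15.3 times background. Its mean log2 signal was 9.15 ± 0.05 (SD, n = 2), and its log2 difference, array 2 minus array 1, was 0.06, where that of CMT3a was -0.10. Its suffix marks probes that may also match other sequences, and whether it reads CMT3a was not tested.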

How the results depend on the processing

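The highest reporter probe set gave thresholds of 92.3 on array 1 and 98.7 on array 2. With these, the 4 methyltransferase genes and the 8 other DNA methylation genes were all above background. They also were after quantile normalization, and with the brightest probe set or the mean of all probe sets of each gene. Without replicate 1 or 2 the counts ran from 4 to 4 and from 8 to 8. Genes above background on both arrays must pass on each array alone, so leaving out an array was no check. Of 16 recomputed differences between the arrays, 13 moved by less than the gene's own SD between the 2 arrays. The other 3 were all of MET1b, whose difference of 0.04 became -0.00050 after quantile normalization, 0.00087 relative to probe sets of similar signal, and 0.080 relative to the median of all rice probe sets above background (-0.04), an alternative chosen after seeing the data. A gene's own SD follows from its difference and was smallest for MET1b, at 0.03, so small shifts count as moves there. At the brightness of MET1b the SD between arrays was 0.12, more than any of these 3 shifts. The sign for MET1b depended on the processing, while MET1a, CMT3a and DRM2 were dimmer on array 2 in each alternative. Array numbers are only replicate names within 1 group, so these signs describe spread between the arrays. No paired analysis was possible because there is only 1 group. Leaving out an array leaves no difference to compute. Each gene rests on 1 probe set, so the probe set rule could not be varied for the 4, and transcripts below background were not detectable at this signal.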
